A study of Mus musculus with 44 samples.

Results

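The chemokine receptor genes Ackr3 and Cxcr4 and the gene of their shared ligand, Cxcl12, were followed through 20 chromatin libraries of HPC7 cells and 3 lists of Snai1 binding sites. The 3 genes were taken by name from the 27044 gene windows kept, and the set was chosen because the H3K4me1 signal of Ackr3 was lower with mutant Snai1 in all replicates. That H3K4me1 difference is therefore described here without a test, and so are the H3K4me1 differences of the mutant for the other genes. HPC7 is a mouse haematopoietic progenitor line, grown here with stem cell factor. All cells carried an MSCV-IRES-GFP retrovirus, either with no insert (empty vector), with wild-type Snai1 cDNA, or with a mutant Snai1 cDNA that has alanine in place of phenylalanine at position 5. The labels state that this change impairs the interaction of Snai1 with Lsd1, a demethylase that removes methyl groups from H3K4. GFP-positive cells were sorted 1 week after transduction and expanded. Snai1 is supplied by the vector in these cells, so the wild-type group is an added-expression model and not a test of endogenous Snai1. Each construct had 3 libraries of H3K4me1 and 3 of H3K4me2, wild-type cells alone had 2 IgG libraries, and no source states whether equal replicate numbers mark a shared culture or chromatin preparation.

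CXCL12 is the chemokine that holds blood stem and progenitor cells in the bone marrow, where it is made mainly by stromal cells. CXCR4 is the G protein-coupled receptor through which it signals to the migration machinery. ACKR3, formerly called CXCR7, is an atypical receptor that binds CXCL12, recruits arrestins and clears the ligand without signalling through G proteins in the usual way. H3K4me2 and H3K4me1 are histone marks found around active or poised start sites and enhancers, H3K4me1 being the broader of them. In a pool of cells, a change in the number of cells that carry a mark and a change in the level per cell cannot be told apart.

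Ackr3 (gene ID 12778) lies on the plus strand of GRCm38 chromosome 1, from 90203980 to 90215724. Cxcr4 (gene ID 12767) lies on the minus strand of the same chromosome, from 128588199 to 128592299, and Cxcl12 (gene ID 20315) on the plus strand of chromosome 6, from 117168535 to 117181368. The 250 bases before each annotated start (RefSeq, GRCm38.p6, coding strand) are shown because the counted windows are named as lying around start sites, with each CpG in capitals, since CpG-rich promoters are the class that most often carries H3K4 methylation. Which start was used for a gene with several is not given in the sources used here. The stretches come from chr1:90203730-90203979, chr1:128592300-128592549 and chr6:117168285-117168534.
Ackr3: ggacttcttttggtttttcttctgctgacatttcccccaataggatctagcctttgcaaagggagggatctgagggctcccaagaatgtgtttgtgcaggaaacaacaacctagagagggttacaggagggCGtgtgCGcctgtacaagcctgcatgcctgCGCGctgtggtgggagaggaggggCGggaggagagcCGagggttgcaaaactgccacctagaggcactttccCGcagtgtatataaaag
Cxcr4: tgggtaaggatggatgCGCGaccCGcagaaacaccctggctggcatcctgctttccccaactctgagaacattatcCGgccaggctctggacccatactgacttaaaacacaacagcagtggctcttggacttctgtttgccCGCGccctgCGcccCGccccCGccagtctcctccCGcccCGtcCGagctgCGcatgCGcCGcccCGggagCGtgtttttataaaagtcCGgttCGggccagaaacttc
Cxcl12: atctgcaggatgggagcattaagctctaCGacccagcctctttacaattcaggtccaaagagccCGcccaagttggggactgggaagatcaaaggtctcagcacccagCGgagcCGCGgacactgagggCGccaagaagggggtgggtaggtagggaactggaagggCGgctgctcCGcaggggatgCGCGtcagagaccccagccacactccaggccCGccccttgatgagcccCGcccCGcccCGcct
The Cxcr4 stretch held 19 CpGs, that of Cxcl12 14 and that of Ackr3 7, where the median of 27025 promoters was 6. None of these 250-base stretches held CAGGTG or its complement CACCTG, the E-box that Snail family zinc fingers are known to bind, searched on both strands. Over all promoters of this length, 17.1% held it. The wider E-box CANNTG, which contains CAGGTG, was also not found in these stretches and was found in 66.0% of all promoters.

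Window counts summed to between 8694515 and 18199945 reads in H3K4me2 libraries, between 4042976 and 8813537 in H3K4me1 libraries, and to 2714255 and 3355479 in the IgG libraries. Replicate 1 stood apart from replicates 2 and 3 in every construct. The variance between libraries of 1 group was 9.49 to 17.7 times the counting variance in the 12 pairs with replicate 1, and 0.98 to 2.30 times in the 6 pairs of replicates 2 and 3. Empty-vector H3K4me1 replicates 2 and 3 differed by less than counting noise and count as 1 sample, which leaves n = 2 there. Values are given per library, pooled, and within replicate 1 and replicates 2 and 3. These sets are called batches below, a grouping taken from the spread of the counts, since no label names a batch. Same-numbered libraries of different constructs are not shown to share a preparation. P-values measure only the spread between these libraries, which may be technical. As a check of the cell type, all 10 blood progenitor genes stood above 5 times the mean window of silent genes (1482 olfactory and vomeronasal receptor windows) in both marks, with Kit at 79.9 times in H3K4me2. Of 7 stromal genes 2 did, Pdgfra and Pdgfrb, while the stromal marker Lepr stood at 1.60 times in H3K4me2. Of 5 lymphoid genes 3 did in each mark, and of 4 endothelial genes 1 did in H3K4me2 and 2 in H3K4me1. Over all windows 48.8% stood above 5 times in H3K4me2 and 54.4% in H3K4me1, so this cut alone does not set a cell type apart.

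Across the 9 libraries of each mark, the 3 genes formed a fixed order of levels. Windows are named as having 1 length, with no coordinates to check it. Levels are set side by side on that basis and without subtracting IgG. In wild-type cells IgG averaged 3.08 times the silent mean at Ackr3, 2.87 at Cxcr4 and 1.83 at Cxcl12. In H3K4me2, Cxcr4 stood at 42.5 to 108 times the mean silent window, Ackr3 at 5.07 to 16.99 times and Cxcl12 at 0.91 to 1.95 times. In H3K4me1 the same genes stood at 18.8 to 49.9, 5.94 to 24.5 and 0.797 to 1.62 times. No library of 1 gene reached the range of the next in H3K4me2, whereas the H3K4me1 ranges of Cxcr4 and Ackr3 overlapped. The window of Cxcr4 held more H3K4me2 than 98.3% of all windows and that of Ackr3 more than 56.4%. For H3K4me1 these shares were 95.0% and 76.3%, and Cxcl12 stood above 22.8% of windows in H3K4me2 and 20.5% in H3K4me1. The balance of the marks also separated the receptors: the ratio of H3K4me2 to H3K4me1, each in multiples of the silent mean, was 1.75 to 3.61 at Cxcr4 and 0.442 to 0.98 at Ackr3. Counting error was 1.81 to 4.99% of a value at Cxcr4, 3.79 to 8.74% at Ackr3 and 13.7 to 24.3% at Cxcl12, where a library held only 17 to 53 reads of a mark.

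**Figure D1:**
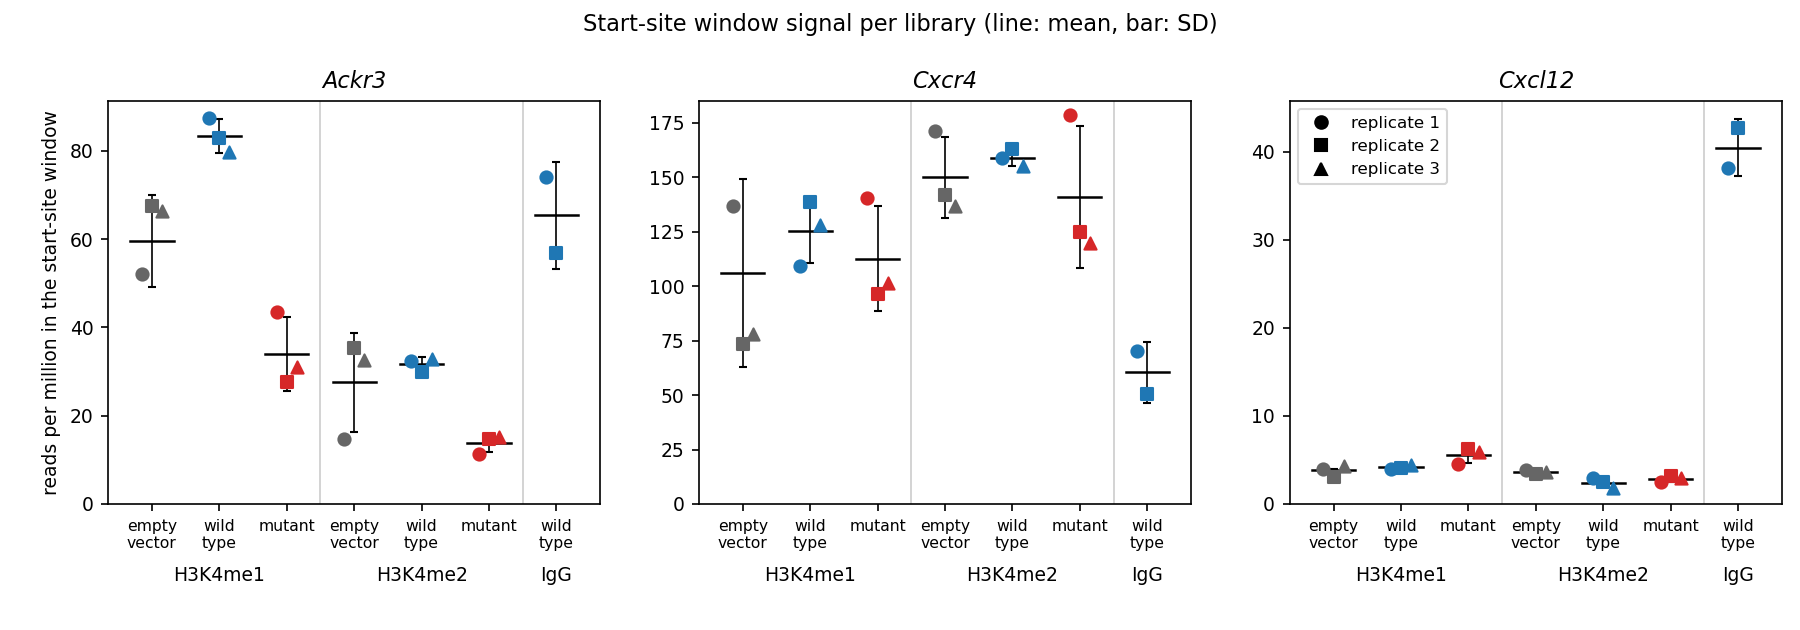
CPM in the start-site window of each gene, by construct and antibody, 1 point per library with the symbol giving the replicate number, the line the mean and the bar the SD. The mutant libraries of Ackr3 sit below all wild-type libraries in both marks, those of Cxcr4 overlap the other constructs, and Cxcl12 stays under 6.3 CPM in every H3K4me1 and H3K4me2 library.

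Ackr3 had the lowest H3K4me1 with mutant Snai1 and the highest with wild-type Snai1. In CPM, reads scaled to the TMM-adjusted library size, the mutant libraries held 43.5, 27.6 and 30.9, the wild-type libraries 87.5, 82.9 and 79.7, and the empty-vector libraries 52.2, 67.5 and 66.3 in replicates 1, 2 and 3. All mutant values lie below all others, and all wild-type values lie above all others. This pattern of the mutant is what chose the gene: 166 of 25728 windows (0.645%) had every mutant sample below all others, and 625 (2.43%) had the mutant below both other constructs in each numbered replicate. Mutant libraries averaged 34.02 ± 8.39 CPM (SD, n = 3), wild-type libraries 83.4 ± 3.91 (n = 3) and empty-vector samples 59.5 ± 10.4 (n = 2). The log2 fold change of the mutant was -1.29 (SE 0.19) against wild type, where 2.81% of windows lay lower without overlap, and -0.80 (SE 0.21) against the empty vector, where 4.2% did. Neither of the other genes met the rule, since mutant Cxcr4 libraries lie among the others and those of Cxcl12 lie above them. The mutant value closest to the boundary is replicate 1, at 43.5 against 52.2 CPM in the same replicate of the empty vector. Scaled to silent windows in place of TMM, these were 15.47 and 15.54 times the silent mean.

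Wild-type Snai1 cells were compared with the empty vector in H3K4me1 as well, with Ackr3 at a log2 fold change of 0.48 (SE 0.21; unadjusted p = 0.0413, adjusted p = 1.00 from the edgeR quasi-likelihood fit, Benjamini-Hochberg over 25728 windows). The wild-type and empty-vector libraries are those that the choice of the gene was set against, so this value shares its data. Windows with all wild-type samples above all empty-vector samples made up 5.37% of those tested, and 0.0% passed the test in either direction. Without adjustment 742 windows lay under 0.05 in edgeR, and 4 windows were called by DESeq2. With the replicate number as a block 2 windows passed, and Ackr3 had 0.424 (adjusted p = 0.323 by edgeR). Replicate 1 gave 0.74 and replicates 2 and 3 gave 0.28, the same sign in both. Without empty-vector replicate 1 the value was 0.32.

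H3K4me2, a measurement that the choice of Ackr3 did not use, gave lower values with the mutant than with wild-type Snai1, without passing the test over all windows. The mutant libraries held 11.4, 14.8 and 15.1 CPM of H3K4me2 and the wild-type libraries 32.4, 29.9 and 32.8. The empty-vector libraries held 14.7, 35.4 and 32.6. All mutant libraries lie below all wild-type libraries, and empty-vector replicate 1 lies among the mutant libraries. With libraries of equal number compared, the mutant lay below both other constructs in all 3 replicates, as did 2.03% of windows, while 0.513% of windows had the mutant below all libraries of both. Windows with the mutant below wild type without overlap made up 2.89% of the 25742 tested. The means were 13.8 ± 2.08 CPM in mutant and 31.7 ± 1.56 CPM in wild-type libraries (SD, n = 3 each), a log2 fold change of -1.21 (SE 0.28), or 2.31-fold lower. Only 22 windows had a lower fold change. The unadjusted p was 0.000804 and the adjusted p = 0.503 by edgeR. In that fit 0.0% of windows passed, while 2548 stood at an unadjusted p under 0.05. DESeq2 called 72.

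The call at Ackr3 in this comparison changed with the fit, while the fold change did not change sign. It passed with DESeq2 (adjusted p = 0.00112), with replicates 2 and 3 summed and a batch term (0.0018), with scaling to silent windows (0.0319, log2 fold change -1.53) and without mutant replicate 1 (0.0444). In these fits 72, 117, 51 and 4289 windows passed in all, in that order. Leaving out mutant replicate 1 ties batch to construct. Over all alternatives the adjusted p ran from 0.00112 to 0.969 and the log2 fold change from -1.53 to -1.12. Within replicate 1 the log2 ratio was -1.47, and within replicates 2 and 3 it was -1.05, where the chromosome 1 medians were 0.00 and -0.03. The H3K4me1 ratios of the same batches were -1.0 and -1.47. The antibodies differ between the marks, but whether their libraries share chromatin is not stated, so the marks are not shown to be independent cultures.

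Against the empty vector the H3K4me2 of Ackr3 in the mutant had a log2 fold change of -1.0 (SE 0.28; unadjusted p = 0.00332, adjusted p = 0.952 by edgeR), where 0.0% of windows passed. At an unadjusted p under 0.05 there were 1274, and DESeq2 called 8. Empty-vector libraries averaged 27.5 ± 11.2 CPM (SD, n = 3), a spread set by replicate 1. Without empty-vector replicate 1 the log2 fold change was -1.31 and passed (adjusted p = 0.0046), as did 407 windows in all. Leaving this library out ties batch to construct. Over all alternatives the adjusted p ran from 0.0046 to 1.00. The log2 ratio was -0.36 in replicate 1 and -1.16 in replicates 2 and 3. Wild type against the empty vector gave 0.21 (SE 0.27; adjusted p = 0.941), with 1.12 in replicate 1 and -0.12 in replicates 2 and 3. The direction of that last comparison thus differs between batches, and in it 0.00388% of windows passed, 1 window, or 5 with the replicate number as a block.

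**Figure D2:**
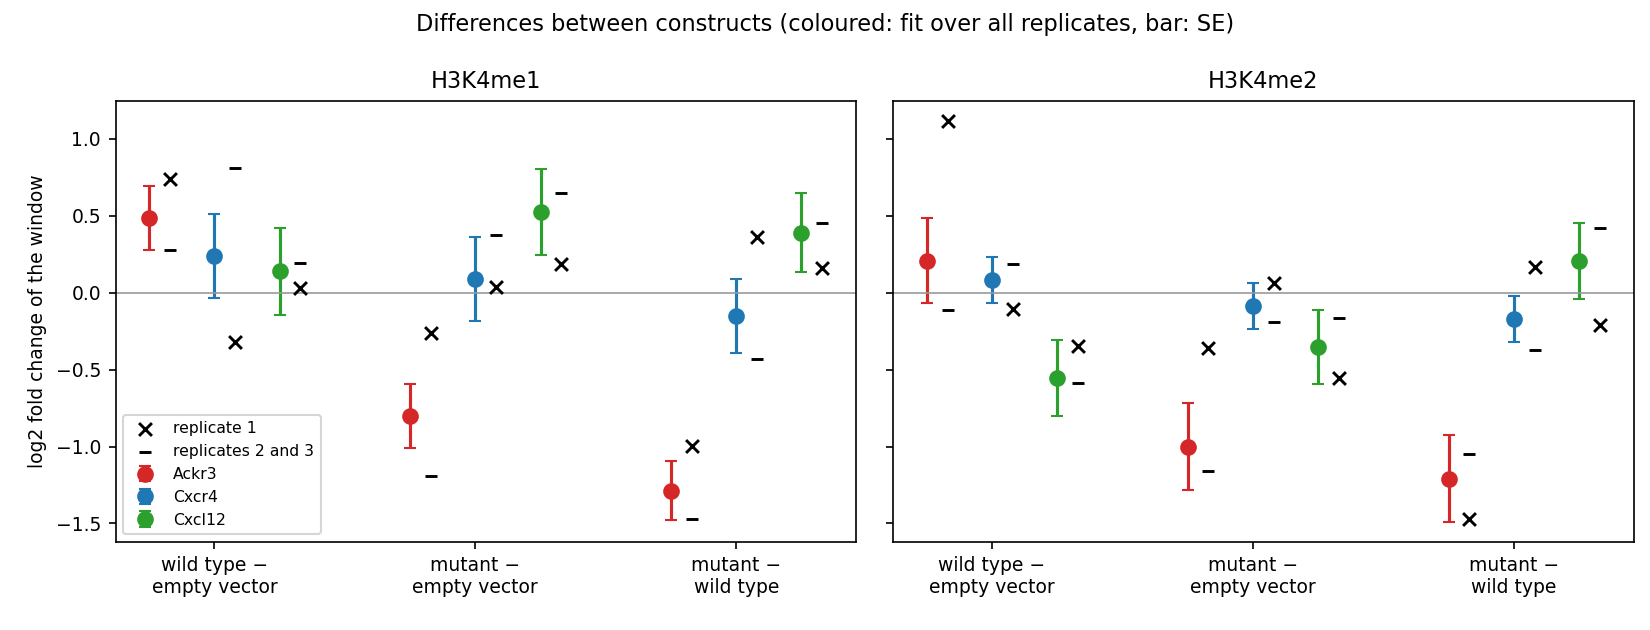
Log2 fold change of the start-site window in each comparison of constructs, with coloured points from the fit over all replicates (bar: SE), crosses for replicate 1 and dashes for replicates 2 and 3. Ackr3 in the mutant is below 0 in both marks and both batches, from -0.26 to -1.47, while batches of Cxcr4 fall on both sides of 0 in most comparisons.

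Windows around Ackr3 did not share its difference. Within 1 Mb of its start, 13 other windows were tested, and none had a lower log2 fold change of the mutant than Ackr3 against either construct in either mark. Few windows anywhere did: 14 in H3K4me1 and 22 in H3K4me2 against wild type, and 113 and 39 against the empty vector. Any 13 windows would thus rarely hold a lower one, so this rank does not set the region apart. The 13 windows had a median for mutant against wild type of 0.23 in H3K4me2 and 0.02 in H3K4me1. The nearest named gene upstream, Iqca, at 50.5 kb, had 0.23 and 0.08 for these marks. Downstream the nearest was Cops8, which encodes a subunit of the COP9 signalosome, at 399 kb with -0.12 and 0.00. The lowest of the 13 was Prlh at -0.52 and -0.31, and the highest was Mlph at 1.07 and 0.69. Asb18 upstream and Col6a3 downstream, the second-nearest named genes, had H3K4me2 values of 0.38 and 0.35.

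**Figure D3:**
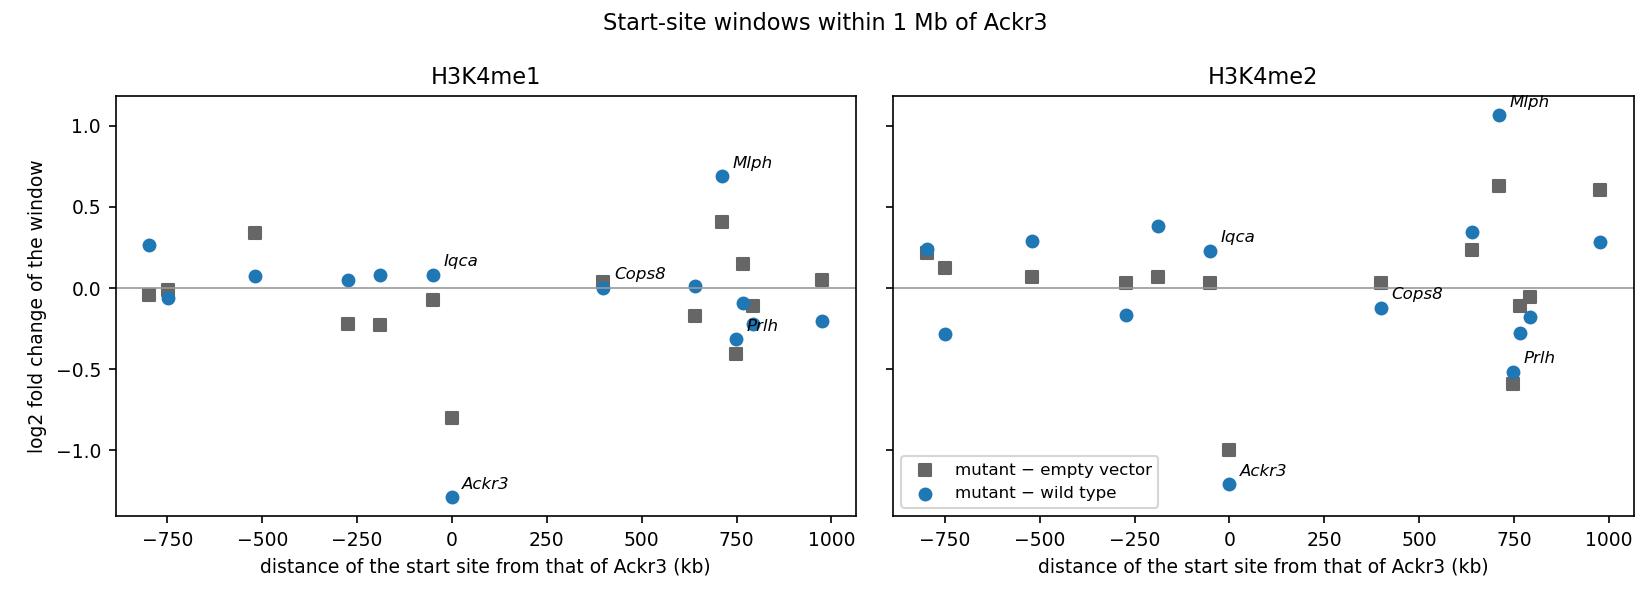
Log2 fold change of each start-site window within 1 Mb of Ackr3, by distance of its start from that of Ackr3 in kb, for mutant against empty vector (squares) and against wild type (circles). Ackr3 is the lowest point in both marks, at -1.29 and -1.21 against wild type, while the other 13 windows scatter around 0.

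Cxcr4, the signalling receptor, carried strong H3K4me2 in all constructs, and no comparison of constructs passed there. Its H3K4me2 CPM was 171, 142 and 137 with the empty vector, 159, 163 and 155 with wild type, and 179, 125 and 120 with the mutant, in replicates 1, 2 and 3. The mutant libraries span those of the other constructs. Means were 150 ± 18.4, 159 ± 3.93 and 141 ± 32.6 CPM (SD, n = 3 each). Against the empty vector the log2 fold changes were 0.08 (SE 0.15) in wild type and -0.09 (SE 0.15) in the mutant, and mutant against wild type stood at -0.17 (SE 0.15), with adjusted p = 0.96, 0.958 and 0.59 by edgeR. Within replicate 1 the mutant against wild type stood at 0.17, and within replicates 2 and 3 at -0.38. Without mutant replicate 1 that fold change was -0.41 and passed (adjusted p = 0.0327), as did 4289 windows in all. Leaving this library out ties batch to construct. Over all alternatives the adjusted p ran from 0.0327 to 1.00.

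The H3K4me1 of Cxcr4 varied widely among replicates of the empty vector. With the empty vector it was 137 CPM in replicate 1 and 73.3 and 78.0 in replicates 2 and 3. Wild-type libraries held 109, 139 and 128 CPM, and mutant libraries 140, 96.2 and 102. Empty-vector replicate 1 thus lies with the highest libraries and replicates 2 and 3 are the lowest of all. Wild type against the empty vector had a log2 fold change of 0.24 (SE 0.27; adjusted p = 1.00 by edgeR), with -0.32 in replicate 1 and 0.81 in replicates 2 and 3. Without empty-vector replicate 1 the value was 0.73, again without passing. The mutant, described without a test, had 0.09 (SE 0.27) against the empty vector, with 0.575 when empty-vector replicate 1 was left out and -0.103 when mutant replicate 1 was. Against wild type it had -0.15 (SE 0.24), with -0.346 to -0.048 over the alternatives, the lowest without mutant replicate 1. Around Cxcr4, the nearest named genes downstream were Dars, an aspartyl-tRNA synthetase gene at 175 kb, and Mcm6, a replicative helicase gene at 233 kb. For mutant against wild type in H3K4me2 these stood at -0.12 and -0.18. The nearest upstream, Thsd7b and Cd55b, lay 681 and 1831 kb away, with 0.42 and 0.35.

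Cxcl12, the ligand gene, stood near the level of silent windows in every H3K4 library. H3K4me2 CPM was 3.83, 3.43 and 3.58 with the empty vector, 2.91, 2.51 and 1.84 with wild type, and 2.45, 3.19 and 2.95 with the mutant. All wild-type and all mutant libraries lie below all empty-vector libraries, which was so for 6.72 and 1.94% of all windows in the same comparisons. The log2 fold changes were -0.56 (SE 0.25; unadjusted p = 0.0411, adjusted p = 0.647 by edgeR) and -0.35 (SE 0.24; adjusted p = 0.952). Mutant against wild type had 0.20 (SE 0.25; adjusted p = 0.673). These differences amount to about 1 CPM at 18 to 53 reads per library. H3K4me1 CPM was 3.94, 3.11 and 4.31 with the empty vector, 4.03, 4.14 and 4.48 with wild type, and 4.55, 6.25 and 5.90 with the mutant. All mutant libraries lie above all wild-type libraries (5.9% of windows) and all empty-vector libraries (6.24% of windows), with log2 fold changes of 0.39 (SE 0.26) and 0.53 (SE 0.28), again without a test. Wild type against the empty vector had 0.14 (SE 0.28; adjusted p = 1.00). The nearest named genes on either side were Tmem72 and Rassf4 upstream, with H3K4me1 values of 0.21 and 0.19 for mutant against wild type, and Zfp637 and Zfp239 downstream, with 0.20 and -0.20.

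IgG, the antibody control, was sequenced in wild-type cells only, and what it shows depends on the scale. Ackr3 held 74.0 and 56.8 CPM of IgG in replicates 1 and 2, Cxcr4 70.4 and 50.5, and Cxcl12 38.2 and 42.8. Both receptor windows are high for IgG, above 98.4 and 96.0% of all windows, while Cxcl12 lies above 56.9%. On column totals, Cxcr4 was above IgG in both marks (log2 1.34, SE 0.19, adjusted p = 1.69e-05 for H3K4me2, and 1.03, SE 0.20, adjusted p = 0.000767 for H3K4me1, by edgeR). Cxcl12 was below IgG in both (-4.07, adjusted p = 1.98e-07, and -3.27, adjusted p = 1.5e-05). Ackr3 was below IgG in H3K4me2 (-1.10, SE 0.16, adjusted p = 2.05e-05) and did not pass in H3K4me1 (0.33, SE 0.17, adjusted p = 0.104). Over the H3K4me2 windows tested on this scale, 91.8% passed, 36.1% as higher and 55.7% as lower, and of those for H3K4me1 76.1%, 27.7% as higher and 48.4% as lower. Without IgG replicate 1 the H3K4me1 value of Ackr3 was 0.54 and passed (adjusted p = 0.028). With TMM in place of column totals, Ackr3 did not pass in H3K4me2 (-0.115, adjusted p = 0.536 by edgeR). It passed as higher in H3K4me1 (0.836, adjusted p = 0.00118). In these TMM fits 25045 and 22469 windows passed in all. The calls at Cxcr4 and Cxcl12 stayed the same with TMM.

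Scaled to silent windows, which hold little of either mark, the order of the genes remained and the sign at Ackr3 turned. On that scale Ackr3 was above IgG at 2.43 (SE 0.40, adjusted p = 3.58e-09) in H3K4me2 and 2.90 (SE 0.49, adjusted p = 6.72e-09) in H3K4me1. Cxcr4 stood at 4.86 (SE 0.57) and 3.60 (SE 0.54) with adjusted p = 2.29e-17 and 1.26e-10. Cxcl12 had -0.50 (SE 0.34, adjusted p = 0.231) and -0.66 (SE 0.35, adjusted p = 0.0923), so it did not pass in either direction. On this scale 54.8% of windows were higher and 0.479% lower in H3K4me2, and 62.0% higher and 3.02% lower in H3K4me1. From column totals to silent windows, the median of all windows moved from -1.92 to 1.64 in H3K4me2 and from -0.44 to 2.16 in H3K4me1. Relative to that median, Ackr3 stood above 53.5 and 53.3% of windows in H3K4me2 and above 68.1 and 67.0% in H3K4me1.

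The other 56 listed genes of the pathway spanned levels from near silent to high, and 0 of them passed in the 4 comparisons of constructs that were tested, where 0.00388% of H3K4me2 windows passed for wild type against the empty vector and 0.0% in the others. Among the ligand genes, Hmgb1 and Mif, which encode proteins that also engage CXCR4 signalling, stood at 42.9 and 17.8 times the silent mean in H3K4me2. Cxcl11, Cxcl14, Adm and Penk stood at 1.23 to 1.62 times, near Cxcl12 at 1.405. The other atypical receptor genes Ackr1, Ackr2 and Ackr4 stood at 1.82, 2.59 and 1.52 times, below Ackr3 at 11.8, and Ccrl2, a receptor-like gene of the same group, stood at 49.1. Of the 13 genes for receptor desensitisation and sorting, such as the arrestin and G protein-coupled receptor kinase genes, 12 stood above 5 times, and of 25 for Gi and migration signalling 23 did. Of the 8 receptor genes, Cxcr4 and Ackr3 included, 5 did, of 7 ligand genes, Cxcl12 included, 2 did, and of 6 genes for proteases that cleave CXCL12 3 did, so levels were mixed within these roles. Over all windows 48.8% stood above 5 times in H3K4me2, and the medians were 40.1 for the list and 4.23 for all windows. In H3K4me1 the medians were 21.1 and 6.76.

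**Figure D4:**
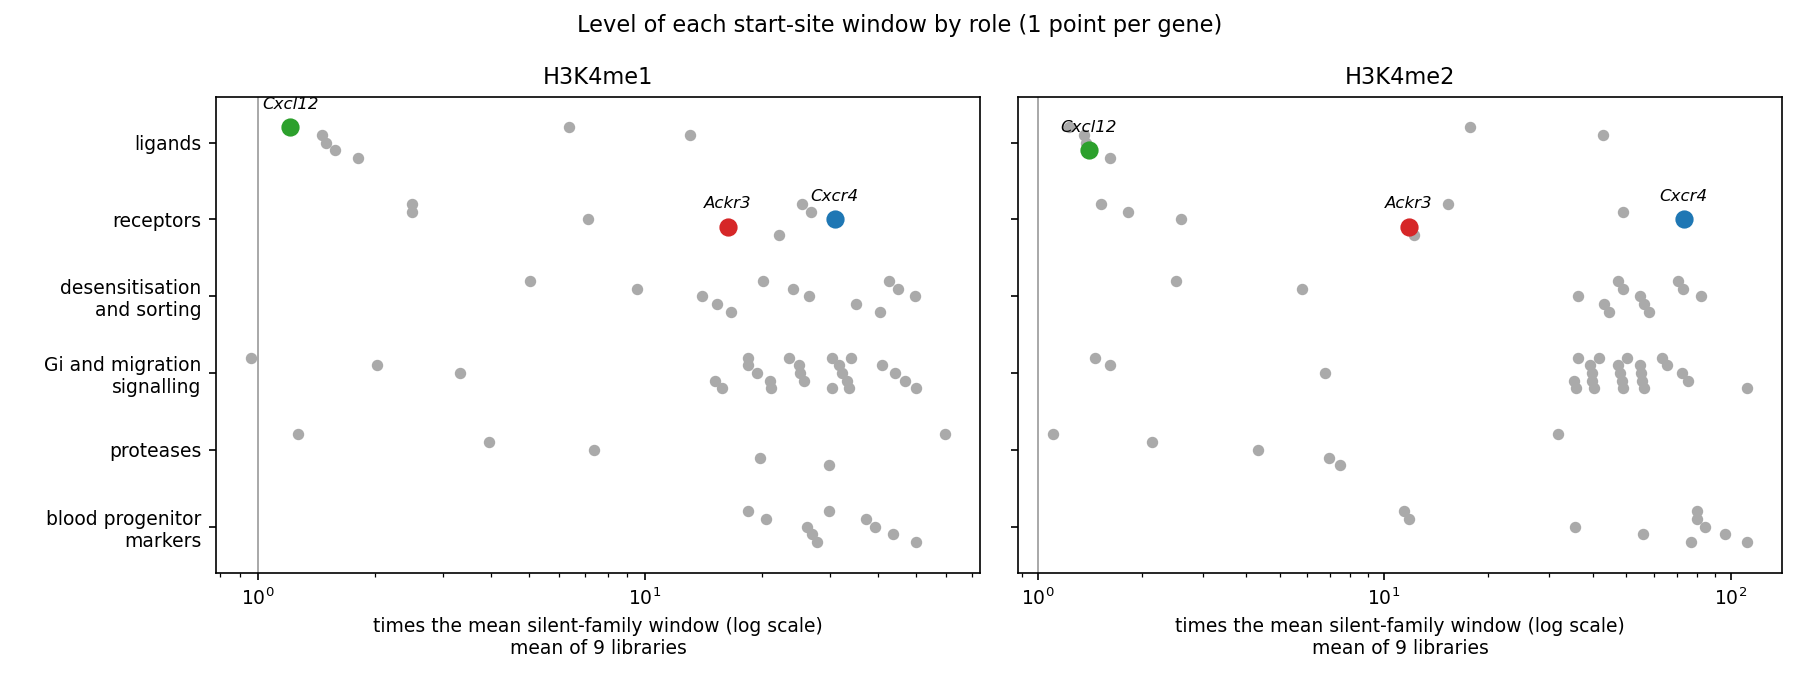
H3K4me1 (left) and H3K4me2 (right) of each listed gene as a multiple of the mean silent-family window on a log axis, 1 point per gene and mean of 9 libraries, grouped by role with blood progenitor markers for comparison. Cxcl12 lies near 1 in both marks, Ackr3 at 16.4 and 11.8 and Cxcr4 at 30.9 and 73.3.

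Between constructs the list's medians lay within 0.1 of those of all windows. Its median log2 fold change in H3K4me2 was -0.01 for wild type against the empty vector, -0.02 for the mutant against the empty vector and -0.04 for mutant against wild type, where all windows had -0.01, 0.03 and 0.04. In H3K4me1 the medians were -0.01, -0.05 and -0.04 in the same order, where all windows had -0.02, 0.00 and 0.01. For mutant against wild type in H3K4me2, 1 of the 56 lay below and 2 above without overlap, where 2.89 and 6.33% of all windows did. For wild type against the empty vector these were 3 and 1 (6.72 and 6.22% of windows) in H3K4me2 and 3 and 3 (8.69 and 5.37%) in H3K4me1. The mutant against the empty vector had 1 and 2 in H3K4me2 (1.94 and 4.91%) and 1 and 4 in H3K4me1 (4.2 and 6.24%). For mutant against wild type in H3K4me1, where Ackr3 lay lower, 0 of the 56 lay below and 5 above (2.81 and 5.9%). In each role 1 gene is named, that with the smallest p over all comparisons. Hmgb1, Grk3 and Ptk2 did not pass, and Ackr1 and Dpp4 came from a comparison described here without a test. For wild type against the empty vector in H3K4me2 these were Grk3, a receptor kinase gene, at -1.33 (SE 0.33; 3.02 ± 0.31 against 7.75 ± 2.33 CPM, n = 3 each; adjusted p = 0.446 by edgeR), and Hmgb1 at 0.28 (SE 0.13; adjusted p = 0.692). For mutant against wild type they were Ptk2, the focal adhesion kinase gene, in H3K4me2 at 2.65 (SE 0.66; adjusted p = 0.503 by edgeR), and in H3K4me1, as values alone, Ackr1 at 0.77 and Dpp4, a protease gene whose product trims CXCL12, at -0.85. Ptk2 had 0.09 in replicate 1 and 3.36 in replicates 2 and 3.

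Snai1 peaks lay near both receptor genes and not within 100 kb of Cxcl12. The deposited empty-vector list holds 137 peaks, the wild-type list 2929 and the mutant list 12037. Sample titles call the 4 Snai1 ChIP libraries of each construct technical replicates, and each construct has 1 list. Positions and heights are therefore described without a replicate check, and differences between the lists have no biological replication. Heights are the authors' fold enrichment over local background. At Cxcr4 a wild-type peak (chr1:128591144-128591719) of 8.06-fold with a -log10 q of 29.0 ranked 254 of 2929. A mutant peak (chr1:128591070-128591574) of 12.7-fold with a -log10 q of 54.8 ranked 367 of 12037 in its own list. They shared 431 bases, and their summits lay 21 bp apart, 922 and 901 bp past the annotated start and inside the gene. The mutant list held a further peak of 4.26-fold over the start of Cxcr4 (chr1:128592093-128592365), which covered the 66 bases of the printed upstream stretch nearest the start. It also held 3 peaks of 4.17-, 4.56- and 4.50-fold upstream, with summits 22.6, 23.03 and 83.5 kb from the start.

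Ackr3 had 1 peak in each of the wild-type and mutant lists, just past its far end. The wild-type peak (chr1:90216089-90216348) was 3.90-fold with a -log10 q of 3.97 and ranked 2666 of 2929, and the mutant peak (chr1:90215961-90216362) was 5.11-fold with a -log10 q of 9.62 and ranked 5228 of 12037. They began 365 and 237 bp beyond the gene, their summits lay 77 bp apart, and the whole 260 bases of the wild-type peak lay in the mutant peak. Their summits are 12.2 and 12.1 kb from the annotated start, more than the 5 kb that the table's name gives for its windows, so windows around that start would not reach them. No empty-vector peak lay within 100 kb of any of the genes. Over 25169 genes with coordinates, a peak of the wild-type list lay within 100 kb in 36.3%, of the mutant list in 66.5% and of the empty-vector list in 2.75%. Inside the gene, as at Cxcr4, the shares were 6.65 and 24.9% in the wild-type and mutant lists, and 0.338% in the empty-vector list. Among the other 56 listed pathway genes, a peak lay this near in 37 in the wild-type list and in 48 in the mutant list. Both constructs had a peak at the Ackr3 and Cxcr4 sites, and the H3K4 windows of these genes are given above for each construct. Whether binding and the marks are related was not tested.

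**Figure D5:**
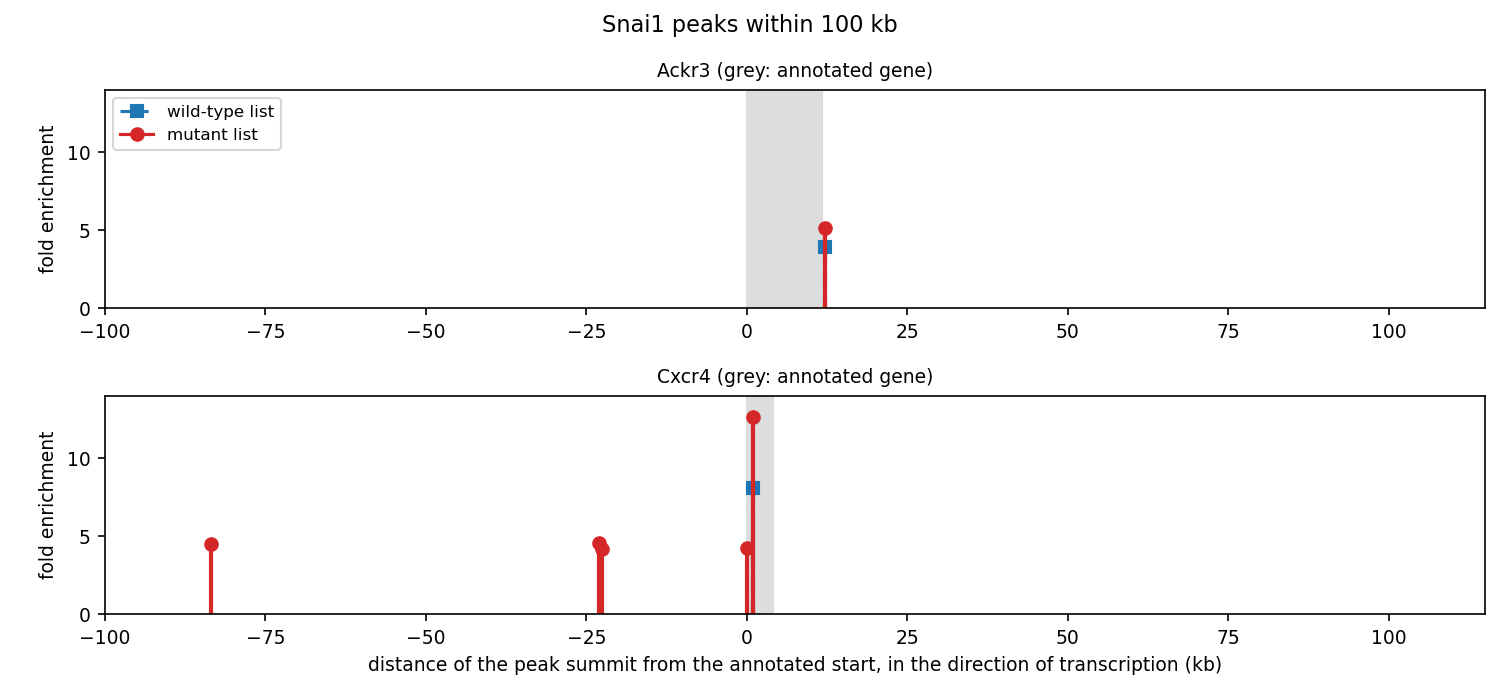
Fold enrichment of each Snai1 peak within 100 kb of Ackr3 (top) and Cxcr4 (bottom), by distance of the summit from the annotated start in the direction of transcription in kb, with wild-type peaks as squares and mutant peaks as circles. Each gene has 1 place with a peak in both lists, past the far end of Ackr3 and inside Cxcr4 near its start, and 4 further peaks at Cxcr4 are in the mutant list.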

How the data were processed

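Raw read counts per start-site window, 1 row per Entrez gene ID, were deposited by the authors for H3K4me1, H3K4me2 and IgG libraries. Reads were aligned with Subread and counted with featureCounts on GRCm38 (mm10), per the submitters' processing notes, with no versions listed. The table's name states windows of 5 kb around the start, and it holds no window coordinates. The deposited peak lists, made with MACS2 per the submitters' processing notes, give a fold enrichment (a ratio to local background), a -log10 q, a score and a summit per peak. The control used and the calling threshold are not given in the sources used here.

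Of 27095 gene rows, those without reads (20) or equal to an earlier row (50) were left out, with 27044 kept. Symbols came from RefSeq (GRCm38.p6) for 93.0% of rows. Each mark was fitted over all 3 constructs with edgeR 4.0.16 in R 4.3.3 (quasi-likelihood F-test, TMM, filterByExpr, two-sided, Benjamini-Hochberg over all windows, threshold 0.05). All 3 genes passed filterByExpr in both marks. Comparisons with IgG used column totals, with TMM and silent-family scaling as alternatives. DESeq2 1.42.0 was an alternative. Ratios within a batch used summed CPM plus 0.5. The fit was also run on simulated counts with a common spread and no batch difference. That run does not cover libraries that differ by batch, as these do. Replicate numbers come from the sample titles. Deviations of same-numbered libraries from their group means correlated above 0.1 in all 3 pairs of empty vector with wild type (0.198 to 0.338 in H3K4me2, 0.131 to 0.286 in H3K4me1) and of empty vector with mutant (0.173 to 0.383 and 0.37 to 0.579). In wild type with mutant the values were -0.211 to 0.136 and -0.0719 to 0.249. Over all constructs, 6 of 9 same-numbered pairs in H3K4me2 and 5 of 9 in H3K4me1 correlated best with their own number. The main fits used no pairing, and the replicate number served as a block only in alternative fits. The members and lists were chosen with earlier results of these data known. The text names all 3 members, the 2 nearest named genes on either side, and in each pathway role the genes that passed or else that with the smallest p over all comparisons, those described without a test included. It also names the 3 windows most like each member in H3K4me1 and every Snai1 peak within 100 kb. Prlh, Mlph and the listed genes whose levels are given were named after their values were seen.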

Additional observations from a re-analysis of the deposited data

How the results depend on the processing

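The log2 fold change of Ackr3 in the mutant kept its sign in all alternatives run, against wild type (-1.53 to -1.12 in H3K4me2, -1.52 to -1.15 in H3K4me1) and against the empty vector (-1.31 to -0.81 and -1.03 to -0.67). Reversed values were Ackr3 in H3K4me2 for wild type against the empty vector without empty-vector replicate 1 (-0.10, with -0.10 to 0.429 over the libraries left out in turn), Cxcr4 in H3K4me2 for the mutant against the empty vector without empty-vector replicate 1 (0.018) or mutant replicate 3 (0.016), with -0.329 to 0.018 over the libraries left out, Cxcl12 in H3K4me2 for mutant against wild type with silent-family scaling (-0.11), and Ackr3 H3K4me2 over IgG with silent-family scaling (2.43). Cxcr4 in H3K4me1 for the mutant against the empty vector, described without a test, also changed sign without mutant replicate 1 (-0.103 against 0.088). The cause was not tested. Low depth limits Cxcl12, at 17 to 53 reads.

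Counts of windows that passed changed with the fit. For wild type against the empty vector in H3K4me2, 1 window passed, with 62 under silent-family scaling, 88 with DESeq2, 0 with only the 2 constructs compared, 89 with replicates 2 and 3 summed together with a batch term, and 0 to 719 with each library left out. For the mutant against the empty vector 0 passed, with 15, 8 and 19 under silent-family scaling, DESeq2 and the summed fit with a batch term, and 0 to 620 with each library left out. For mutant against wild type 0 passed, with 51, 72, 2 and 117 under silent-family scaling, DESeq2, only the 2 constructs and the summed fit with a batch term, and 0 to 4289 with each library left out. In H3K4me1, where 0 passed in each comparison, DESeq2 called 4 for wild type against the empty vector and 32 for mutant against wild type, and the summed fit with a batch term 22, 1 and 19 in the order above. That fit changes 2 choices at once, so its counts belong to both. With each library left out the H3K4me1 counts were 0 to 2, 0 to 0 and 0 to 211. Over IgG, 24155 H3K4me2 windows passed, with 14557 under silent-family scaling and 25045 under TMM. Under TMM the H3K4me2 of Ackr3 over IgG kept its sign without passing. The libraries behind the high counts were all replicate 1, whose absence ties batch to construct: in H3K4me2, without the empty-vector library 719 and 407 passed against wild type and mutant, without the wild-type library 176 and 247 against empty vector and mutant, and without the mutant library 620 and 4289 against empty vector and wild type. In H3K4me1, 211 passed for mutant against wild type without mutant replicate 1, and 2 without wild-type replicate 1 in each of its comparisons.

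With the replicate number as a block, 5 windows passed for wild type against the empty vector in H3K4me2, 0 for the mutant against the empty vector and 12 for mutant against wild type, and 2, 0 and 2 in H3K4me1 with every library its own sample, a setting chosen after seeing the data. Ackr3 in H3K4me2 for mutant against wild type had a blocked adjusted p = 0.0854 by edgeR. The block changed no call of the 3 genes in a comparison that was tested. The numbers did not pair wild type with mutant: 1 of 3 same-numbered pairs correlated above 0.1 in H3K4me2 and 2 of 3 in H3K4me1, and 1 of 3 in each mark correlated best with its own number.

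The 8 Snai1 peaks near the genes became 22 within 200 kb and 2 at a -log10 q of at least 10. The 2 wild-type peaks shared with the mutant list became 5 and 1.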

Other observations

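The windows most like the receptors across the 9 H3K4me1 libraries are listed here as the top of a search. Such values are picked to be high, and no background of correlations is given. For Ackr3 the search used the same values that chose the gene. Among 17451 windows with at least 5 CPM, those most like Ackr3 by Pearson correlation of log2 CPM, given as a description over libraries that share batches, were Mrgpre (chromosome 7, r = 0.977), Tff2 (chromosome 17, 0.95) and Slc6a7 (chromosome 18, 0.95). Their mutant means were 82.8, 26.8 and 55.8 CPM against 112, 42.8 and 87.8 in wild type, smaller steps than that of Ackr3 (34.02 against 83.4). Most like Cxcr4 were Pygl (0.987), Cldn10 (0.983) and Rrp36 (0.982), whose means run from 63.3 to 94.2 CPM over the constructs. Cxcl12 fell short of the minimum level for this comparison.

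The H3K4me2 window of Ptk2 held 24.2 ± 16.1 CPM in mutant and 3.75 ± 1.66 CPM in wild-type libraries (SD, n = 3 each). Its log2 ratio was 0.09 in replicate 1 and 3.36 in replicates 2 and 3, so the difference is seen in replicates 2 and 3 and not in replicate 1.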
